A study of Homo sapiens with 6 samples.

Results

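The genes described here encode subunits of the human CCR4-NOT complex, namely CNOT1, CNOT2, CNOT3, CNOT4, CNOT6, CNOT6L, CNOT7, CNOT8, CNOT9 and CNOT10. They are 10 of the 25420 genes in the tables and were chosen by name. CCR4-NOT is the main cytoplasmic deadenylase. It shortens the poly(A) tails of mRNAs, which lowers their translation and opens the way to decapping and decay. RNA-binding proteins and the microRNA machinery bring the complex to particular mRNAs, and in blood cells such recruitment is known for short-lived transcripts of cytokines and growth regulators.

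The cells were MOLM-13, an established human acute myeloid leukemia line, and all libraries share that single line as their model. One group of 3 libraries received 10 µM C646, an inhibitor of the acetyltransferases CBP and p300, for 2 h, and the other group of 3 received the solvent DMSO. Both groups carried 100 µM 4-thiouridine (4sU) for the final 1 h, and the SLAM-seq chemistry then turned the incorporated 4sU into T>C conversions, so that a read with a conversion marks RNA made in that last hour. The comparison asks how CBP/p300 inhibition altered new RNA (T>C reads) and total RNA (all reads), both counted on 3′ UTRs.

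The libraries held 7252597 to 10225448 reads on 3′ UTRs, of which 477824 to 833410 were T>C reads. T>C reads made up 8.79% ± 0.0637 of these reads in DMSO and 6.48% ± 0.203 in C646 (SD, n = 3 each). All 9 myeloid markers examined reached at least 10 CPM in every library. Of 9 genes chosen as markers of other cell types, 5 stayed under 1 CPM everywhere. Only PECAM1 reached 10 CPM throughout (88.8 to 156 CPM), and it thus does not set these cells apart. CPM here are counts scaled to the TMM-adjusted total of all reads on 3′ UTRs, for T>C reads as well, so T>C CPM are a part of the CPM of the gene. Nothing in the labels says that the 3 libraries of a group came from separate cultures, so p-values measure the spread between these libraries, which may be technical. Fewer cells and less RNA per cell cannot be told apart in such bulk samples.

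The libraries were made from the 3′ end of the mRNA, so the stretch around a poly(A) signal is shown for the main subunits. The tables count reads per 3′ UTR entry and do not give their positions within it. The following 30-base windows come from the GRCh38 genome and lie near the end of the most used 3′ UTR entry of 5 subunits on which the results turn. Each reads 5′ to 3′ on the strand of the gene, with the poly(A) signal in capitals.
CNOT1, chr16:58519952-58519981, minus strand: ctgtagctaaccATTAAAgtcatgacacac
CNOT9, chr2:218596389-218596418, plus strand: taacaggattgaAATAAAacatgcttctgt
CNOT8, chr5:154876753-154876782, plus strand: ttaattttgtaaAATAAAgatttcttttta
CNOT6, chr5:180578372-180578401, plus strand: ttataataattcATTAAAtgtcttgttgcc
CNOT6L, chr4:77713394-77713423, minus strand: tcccctgtaggcAATAAAtggccattttgc
CNOT8, CNOT9 and CNOT6L hold the signal AATAAA, and the scaffold gene CNOT1 and the deadenylase gene CNOT6 hold the variant ATTAAA. Searched on the strand of the gene, 61.2% of 15457 entries held AATAAA in their last 50 bases and 17.8% held ATTAAA. The last 250 bases of the CNOT8 entry also hold 1 copy each of TGTANATA, the letters that Pumilio proteins bind, and of TATTTAT, an AU-rich element. TGTANATA occurs once in that stretch of CNOT7 as well, and TATTTAT once in that of CNOT3. Of 13084 entries of that length or more, 9.08% held TGTANATA and 9.84% held TATTTAT, and such a match is a description of the letters only.

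Each subunit was counted on its 3′ UTR, and the annotation of GENCODE release 44 placed at least 91.0% of the bases of each main entry in a 3′ UTR. The CNOT8 entry spans chr5:154875440-154876792 (1353 bases) and the CNOT9 entry chr2:218594277-218596435 (2159 bases). CNOT6L has the longest entry, with 7044 bases at chr4:77713387-77720430, and CNOT10 the shortest, with 264 bases. CNOT1 has 51 entries, but 96.9% of its reads fell on the last one, chr16:58519946-58521036, which overlaps a 3′ UTR of SETD6 on the opposite strand and is coding in 6.97% of its bases in some transcripts. Reads that mapped to more than one place made up 4.43% of the reads of CNOT7 and 3.58% of those of CNOT6L, and at most 0.204% for each of the other subunits with reads.

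CNOT3, which pairs with CNOT2 in the NOT module, was listed with 0 reads in all 6 libraries. Its 3′ UTR appears 10 times in the tables, once on chromosome 19 and 9 times on alternate sequences of that region. A floor of 3 reads would allow 0.298 to 0.416 CPM, for counting error only, since PCR reads without molecular identifiers are not independent molecules. Of the 286 genes listed on a chromosome and on 5 or more alternate sequences, 222 (77.6%) had no read in any library. The share was 36.7% (8993 of 24502) among genes listed on chromosomes only. No level is therefore given for CNOT3, and its 0 reads do not show whether it was expressed.

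Before C646, the subunits covered a wide range of levels, compared here as 3′-end reads in CPM with no length correction, since each mRNA gives reads at its end. CNOT7, the more abundant CAF1-type deadenylase, stood highest in all reads at 431 ± 32.4 CPM in DMSO (SD, n = 3). CNOT6L, a CCR4-type deadenylase, followed at 272 ± 9.88 CPM, and the scaffold CNOT1 at 194 ± 13.7 CPM. CNOT9 had 126 ± 1.34, CNOT2 77.3 ± 6.11 and CNOT6 62.3 ± 8.34 CPM. CNOT8, the paralogue of CNOT7, stood at 39.8 ± 4.38 CPM. CNOT10 with 20.7 ± 1.18 CPM and CNOT4 with 18.8 ± 2.90 CPM overlapped and were the only neighbors in this order to do so. The median of the 10851 genes tested in all reads was 24.6 CPM.

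The order of new RNA within each gene was another one. CNOT4, a RING-type ubiquitin ligase that joins the complex loosely in human cells, had the highest T>C share of its reads in DMSO, 37.4% ± 5.77 (SD, n = 3). CNOT8 with 24.2% ± 3.12 and CNOT6L with 21.1% ± 1.31 came next and overlapped each other. CNOT6, CNOT2, CNOT7 and CNOT9 lay between 11.3% and 13.7%, each overlapping its neighbor. CNOT1 with 9.39% ± 1.04 and CNOT10 with 8.75% ± 2.35 were lowest and overlapped. The median share of tested genes in DMSO was 13.3%. By the T>C conversions per covered T, which do not count reads, CNOT4 (3.19%), CNOT8 (1.68%) and CNOT6L (1.64%) again stood above the other 6, with a median of 0.913% over tested genes.

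**Figure D1:**
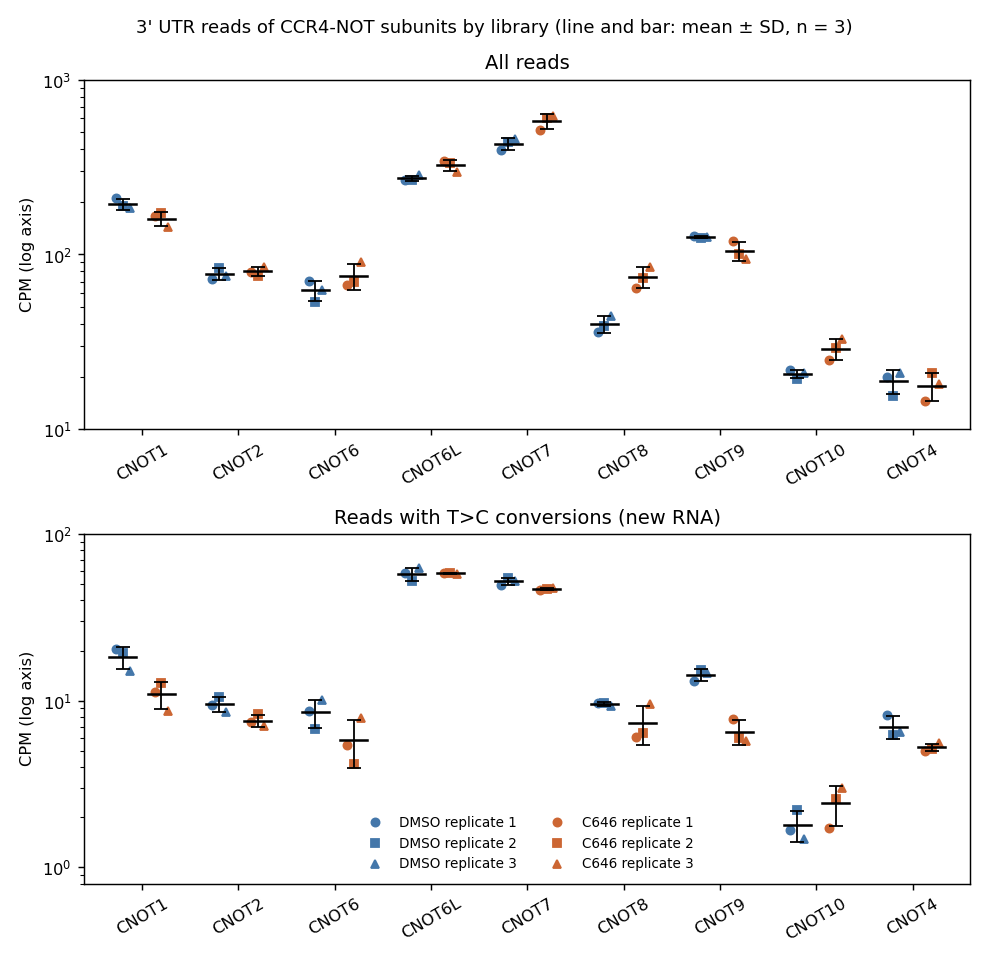
All reads (upper panel) and T>C reads (lower panel) of the 9 CCR4-NOT subunits with reads, in CPM of all reads on a log axis, for 3 DMSO libraries (blue) and 3 C646 libraries (orange), with lines and bars for the mean ± SD. The C646 libraries of CNOT8 lie above its DMSO libraries in all reads (64.4 to 84.5 against 35.9 to 44.6 CPM), and the C646 libraries of CNOT9 lie below its DMSO libraries in T>C reads (5.75 to 7.80 against 13.1 to 15.2 CPM).

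Under C646, new RNA of 2 subunits passed the test downwards, none upwards, while total RNA of 1 subunit, CNOT8, passed it upwards. With scaling by T>C reads in place of all reads, the counts in new RNA turned to 0 lower and 2 higher (CNOT6L and CNOT7), where 8.97% of 7847 genes passed lower and 11.4% higher. The test was edgeR's quasi-likelihood test over all genes, and a gene passed at a Benjamini-Hochberg adjusted p of at most 0.01. For T>C reads, 38.0% of the 7722 genes tested passed lower and 3.83% higher, and 33.0% and 2.97% did so with a change of at least 2-fold. For all reads, 6.28% of 10851 genes passed lower and 9.81% higher, and 1.88% and 5.89% with at least 2-fold. The 2 of 9 tested subunits that passed lower in T>C reads stood against 38.0% of genes, and the 1 of 9 that passed higher in all reads against 9.81%. At an unadjusted p under 0.05 and with scaling by all reads, edgeR gave 2 subunits lower (CNOT1 and CNOT9) and 0 higher in T>C reads. In all reads it gave 0 lower and 3 higher (CNOT7, CNOT8 and CNOT10). DESeq2 at that level gave 0 higher in T>C reads and 1 lower in all reads (CNOT1). With scaling by T>C reads, edgeR gave 4 higher (CNOT2, CNOT6L, CNOT7 and CNOT10) and 0 lower in T>C reads at that level. The shares of all genes at that unadjusted level were not counted.

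In T>C reads, the median log2 fold change (C646 over DMSO) was −0.37 over the 9 subunits and −0.83 over all tested genes. Of the 9, 7 were below 0 and 8 were above the median of all genes. In all reads the medians were 0.25 for the subunits and −0.0030 for all genes. Scaling the libraries by their T>C reads instead sets the median of all genes at 0.011 and that of the subunits at 0.46, so every direction in T>C reads below is relative to all reads on 3′ UTRs. With that scaling, 8 of the 9 subunits were above 0, and only CNOT9 was below.

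**Figure D2:**
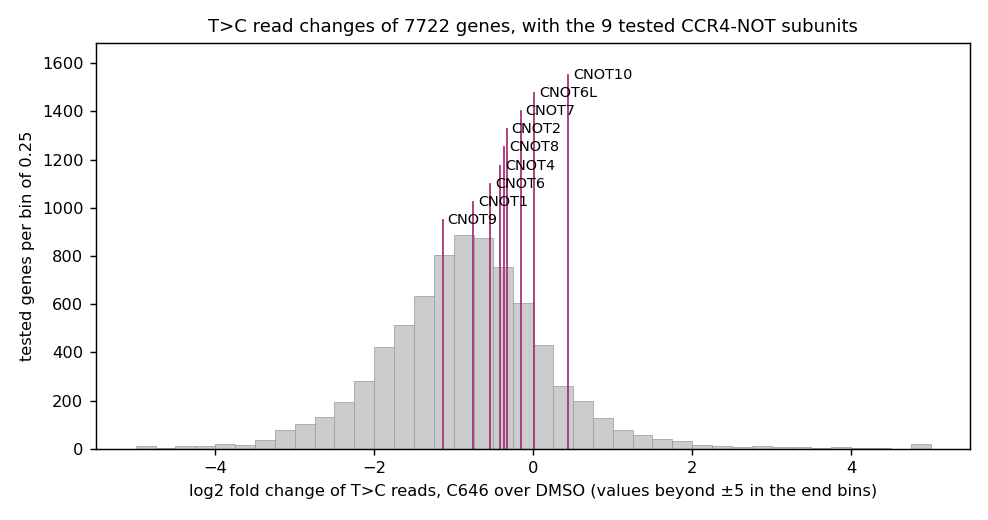
Distribution of log2 fold changes in T>C reads (x axis) over 7722 tested genes (y axis, genes per bin), with a vertical line for each of the 9 tested CCR4-NOT subunits. Only CNOT9 lies left of the median of all genes, −0.83, and CNOT6L and CNOT10 lie right of 0, with libraries scaled by all reads.

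CNOT1 is the scaffold on which the other subunits assemble. Reads with a conversion numbered 194, 139 and 112 under DMSO against 85, 104 and 88 under C646. In T>C CPM these were 20.4, 19.3 and 15.1 against 11.2, 12.7 and 8.73, so that the groups did not overlap. New CNOT1 RNA fell 1.68-fold (log2 fold change −0.75, SE 0.22, adjusted p = 0.00485), though with scaling by T>C reads the value turned to 0.09. The pass was lost without DMSO replicate 1 (adjusted p = 0.0398), DMSO replicate 2 (0.0209) or C646 replicate 3 (0.0248), and with scaling by all filtered reads (log2 fold change −0.55, adjusted p = 0.0455). Total CNOT1 was 210, 189 and 184 CPM in DMSO and 167, 172 and 143 CPM in C646, a log2 fold change of −0.27 that did not pass (SE 0.13, adjusted p = 0.127). The groups did not overlap in either measure, and the fall of CNOT1 in T>C reads was close to the median of all genes (53.9% of tested genes had a lower value).

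CNOT2, which forms the NOT module with CNOT3, had 72.5, 84.1 and 75.1 CPM in DMSO and 79.6, 75.6 and 85.02 CPM in C646 in all reads. The groups overlapped, with a log2 fold change of 0.053 (95% interval −0.21 to 0.32). T>C reads of CNOT2 were 90, 76 and 64 under DMSO against 56, 68 and 71 under C646, in T>C CPM 9.49, 10.5 and 8.62 against 7.41, 8.33 and 7.04. The T>C CPM did not overlap, and the log2 fold change of −0.33 (SE 0.25, adjusted p = 0.258) did not pass. The measures of new RNA differed for this gene. Its T>C reads held 1.39, 0.895 and 1.56 counted conversions each in DMSO and 0.321, 0.706 and 1.04 in C646, against a median of 2.02 per T>C read over tested genes and libraries. The conversion rate was 0.885%, 0.794% and 0.904% of covered T bases in DMSO and 0.159%, 0.396% and 0.380% in C646, without overlap. Tested on conversions in place of T>C reads, a comparison added after the data were seen, CNOT2 had a log2 fold change of −1.20 (SE 0.47, adjusted p = 0.0370), which again did not pass. The part of reads without a counted conversion in this difference was not tested.

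CNOT9, the CAF40 subunit that binds adaptor proteins and sits on CNOT1, had the largest fall of the 9 in new RNA. It had 124, 110 and 109 T>C reads under DMSO against 59, 49 and 58 under C646, which is 13.1, 15.2 and 14.7 against 7.80, 6.005 and 5.75 T>C CPM. All C646 libraries lay well below all DMSO libraries. New CNOT9 RNA fell 2.20-fold (log2 fold change −1.14, SE 0.24, adjusted p = 0.000218), and with scaling by T>C reads it stayed below 0 at −0.30 but no longer passed (adjusted p = 0.358). It passed without any one library (log2 fold change −1.27 to −1.05), and 36.3% of tested genes had a lower value. Counted in conversions, the fall was 3.26-fold (adjusted p = 0.000182). Total CNOT9 was 128, 125 and 127 CPM in DMSO and 119, 101 and 94.5 CPM in C646, and the log2 fold change of −0.27 did not pass (SE 0.13, adjusted p = 0.139). The T>C share of CNOT9 reads was 10.2%, 12.2% and 11.6% in DMSO and 6.53%, 5.95% and 6.09% in C646.

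CNOT8, a CAF1-type catalytic subunit, was the only member that passed in total RNA. It had 35.9, 39.0 and 44.6 CPM in DMSO and 64.4, 73.5 and 84.5 CPM in C646, and the lowest C646 library lay above the highest DMSO library. Total CNOT8 rose 1.87-fold (log2 fold change 0.90, SE 0.16, adjusted p = 0.000839), and 90.0% of tested genes had a lower value. New CNOT8 RNA did not pass the test. Counts of T>C reads were 92, 70 and 69 under DMSO against 46, 52 and 97 under C646, and the T>C CPM were 9.70, 9.70 and 9.29 against 6.08, 6.37 and 9.62. DMSO and C646 overlapped through C646 replicate 3, with a log2 fold change of −0.37 (95% interval −0.87 to 0.14, adjusted p = 0.226) that turned to 0.46 with scaling by T>C reads. The reads without a conversion were 26.2, 29.3 and 35.3 CPM in DMSO and 58.3, 67.2 and 74.9 CPM in C646, so the higher total lay in reads without a conversion. These reads include RNA made in the hour of treatment before 4sU and RNA older than the treatment. They also include RNA made under 4sU whose read holds no conversion, and the libraries do not separate the 3.

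CNOT7, its paralogue and the most abundant subunit, differed less in total RNA. It had 396, 438 and 460 CPM in DMSO and 518, 606 and 619 CPM in C646. The groups did not overlap, but the log2 fold change of 0.43 (SE 0.13, adjusted p = 0.0221) did not pass. It did with scaling by all filtered reads of the library (0.64, adjusted p = 0.00277), since the share of filtered reads that fell on 3′ UTRs was 49.7% to 51.6% in DMSO and 56.3% to 62.0% in C646. T>C CPM of CNOT7 were 49.2, 54.3 and 52.6 in DMSO and 45.9, 47.1 and 47.2 in C646, close together but without overlap. For new CNOT7 RNA the log2 fold change of −0.16 (95% interval −0.46 to 0.15, adjusted p = 0.4004) turned to 0.68 (adjusted p = 0.00113) with scaling by T>C reads. A second, upstream 3′ UTR entry of CNOT7, chosen after its values were seen, held 5.54%, 5.03% and 3.78% of its reads in DMSO and 3.14%, 2.85% and 2.04% in C646.

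In all reads, CNOT7 exceeded CNOT8 by 11.01, 11.2 and 10.3 times in the DMSO libraries and by 8.04, 8.24 and 7.32 times in the C646 libraries. The ratio was lower in every C646 library, a log2 difference of −0.47, and the exact two-sided permutation test gave p = 0.1, the smallest that 3 libraries against 3 allow (0.4 adjusted over 4 ratio comparisons). In T>C reads the ratio was 5.08, 5.60 and 5.67 in DMSO and 7.54, 7.38 and 4.91 in C646, with overlap (log2 difference 0.25, exact permutation p = 0.4, adjusted p = 0.533). A ratio of 2 genes within a library does not depend on how libraries are scaled.

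**Figure D3:**
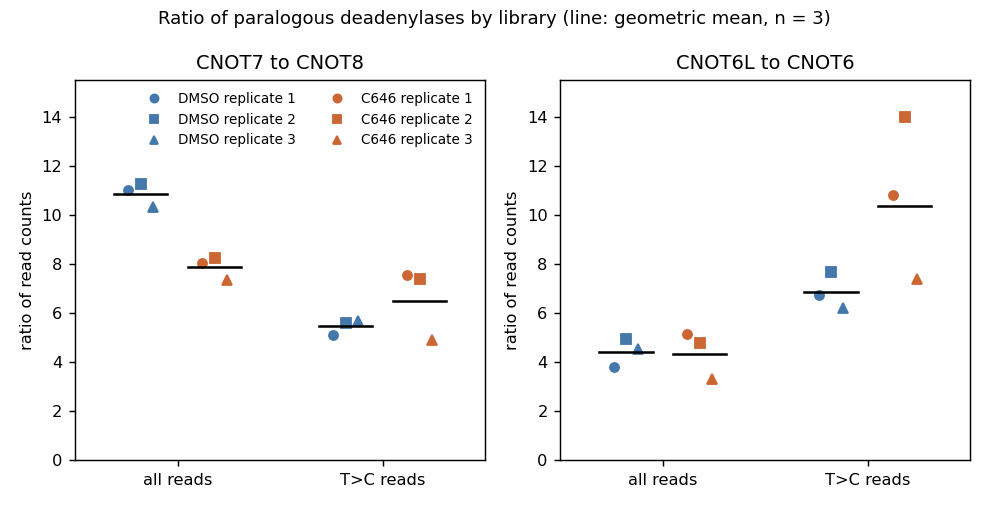
Ratio of read counts (y axis) of CNOT7 to CNOT8 (left) and CNOT6L to CNOT6 (right) in all reads and T>C reads, for 3 DMSO libraries (blue) and 3 C646 libraries (orange), with a line at the geometric mean. The ratio of CNOT7 to CNOT8 in all reads runs from 10.3 to 11.2 in DMSO and from 7.32 to 8.24 in C646, and the other 3 comparisons overlap.

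CNOT6 and CNOT6L are the CCR4-type catalytic subunits. CNOT6L had 268, 265 and 284 CPM in DMSO and 343, 333 and 295 CPM in C646 in all reads. The groups did not overlap, but the log2 fold change of 0.25 (SE 0.13, adjusted p = 0.145) did not pass. New CNOT6L RNA was 58.2, 52.1 and 62.5 T>C CPM in DMSO and 58.6, 58.2 and 57.8 in C646, with a log2 fold change of 0.015 and a 95% interval of −0.28 to 0.31. It thus lay 0.84 above the median of all genes, and 83.3% of tested genes had a lower value. With scaling by T>C reads, the value became 0.85 and passed (adjusted p = 6.92e-05).

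CNOT6 had 70.3, 53.7 and 62.9 CPM in DMSO and 66.5, 70.0 and 90.1 CPM in C646 in all reads, with a log2 fold change of 0.28 (SE 0.16, adjusted p = 0.198). Its T>C CPM were 8.64, 6.79 and 10.1 against 5.42, 4.17 and 7.84. Both measures overlapped between groups, and new CNOT6 RNA had a log2 fold change of −0.54 (SE 0.29, adjusted p = 0.109), or 0.29 with scaling by T>C reads. CNOT6L exceeded CNOT6 in T>C reads by 6.73, 7.67 and 6.19 times in DMSO and by 10.8, 13.97 and 7.38 times in C646, which overlapped through C646 replicate 3 (log2 difference 0.60, exact permutation p = 0.2, adjusted p = 0.4). In all reads the ratio was 3.81, 4.95 and 4.51 against 5.15, 4.76 and 3.28, a log2 difference of −0.027 (exact permutation p = 0.9).

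CNOT10, which anchors with CNOT11 at the other end of CNOT1, had few T>C reads, namely 16, 16 and 11 in DMSO and 13, 21 and 30 in C646. At this depth its log2 fold change in T>C reads, 0.44, had a 95% interval of −0.49 to 1.38. In all reads it had 21.7, 19.4 and 21.0 CPM in DMSO and 24.7, 29.3 and 32.8 CPM in C646. The groups did not overlap, and the log2 fold change of 0.48 (SE 0.17, adjusted p = 0.0471) did not pass.

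CNOT4, with the highest T>C share, had 19.9, 15.53 and 21.0 CPM in DMSO and 14.4, 20.8 and 18.1 CPM in C646 in all reads. T>C reads of CNOT4 were 78, 45 and 48 under DMSO against 38, 42 and 56 under C646, in T>C CPM 8.22, 6.24 and 6.46 against 5.03, 5.15 and 5.56. The T>C CPM did not overlap, and the log2 fold change of −0.41 (SE 0.29, adjusted p = 0.220) did not pass. A second 3′ UTR entry at chr7:135387070-135388793 held 7.52% of its reads, with 9, 12 and 12 reads in DMSO and 5, 12 and 19 in C646, which overlapped.

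**Figure D4:**
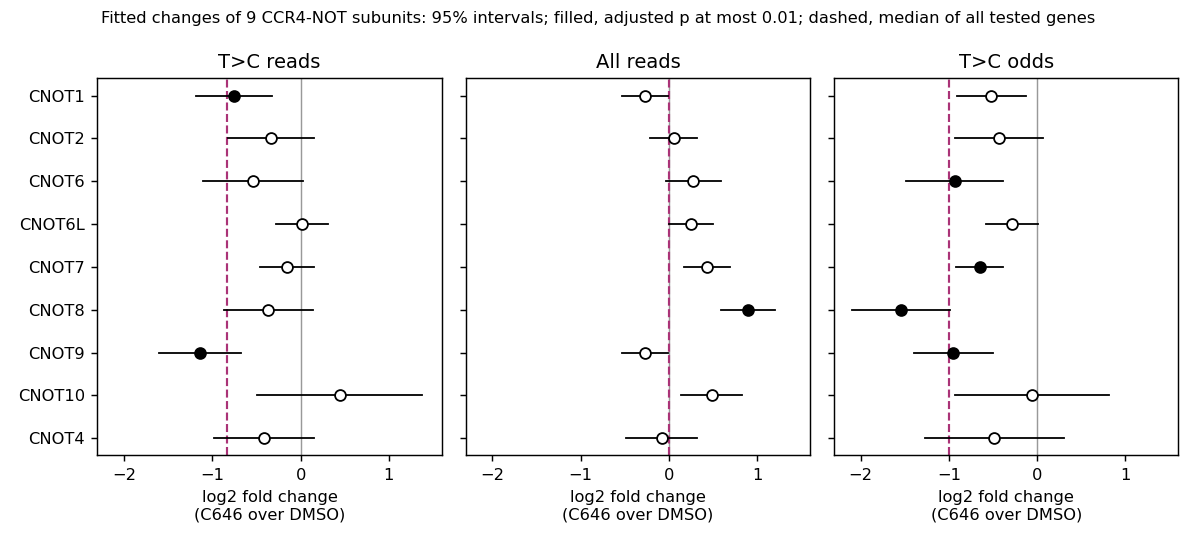
Log2 fold change (C646 over DMSO, x axis) of 9 CCR4-NOT subunits in T>C reads, all reads and T>C odds, with bars for 95% intervals, filled points where the adjusted p was at most 0.01, and a dashed line at the median of all tested genes (−0.83, −0.0030 and −1.004). CNOT1 and CNOT9 are filled on the left, CNOT8 alone in the middle, and CNOT6, CNOT7, CNOT8 and CNOT9 on the right. The CNOT1 point on the left would stand at 0.09 with scaling by T>C reads. The intervals use the normal quantile and are narrower than the quasi-likelihood test implies. In the middle panel those of CNOT1, CNOT6L and CNOT9 leave out 0, though the unadjusted p of that test was 0.056, 0.066 and 0.063.

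The T>C share relates new to total RNA within a gene and needs no scaling between libraries. It was tested as the odds of T>C against other reads, and 4 of the 9 subunits passed lower (CNOT6, CNOT7, CNOT8 and CNOT9), none higher. At an unadjusted p under 0.05 in edgeR, 5 were lower, CNOT1 added, and 0 higher, with no share of all genes counted at that level. Among all 7722 tested genes, 44.8% passed lower and 1.14% higher, and 38.3% and 0.790% did so with at least 2-fold. The median log2 change of the odds was −0.52 over the subunits and −1.004 over all genes.

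CNOT8 had the largest change of the T>C odds. Its T>C share was 27.0%, 24.9% and 20.8% in DMSO and 9.45%, 8.67% and 11.4% in C646, so that the highest C646 library lay well under the lowest DMSO library. The odds fell 2.92-fold (log2 change −1.54, SE 0.28, adjusted p = 8.745e-05), and CNOT8 was the only subunit to pass with at least 2-fold. Only 25.03% of tested genes had a lower value. The conversion rate showed the same separation, with 1.72%, 1.83% and 1.49% of covered T bases in DMSO and 0.649%, 0.587% and 0.730% in C646. Its T>C reads held 2.54 ± 0.146 conversions each in DMSO and 2.38 ± 0.0842 in C646 (SD, n = 3), which overlapped. The same measure was lower in C646 without overlap for CNOT1 (2.22 against 1.73), CNOT6L (2.59 against 2.38), CNOT7 (1.96 against 1.59), CNOT9 (1.98 against 1.33) and CNOT11 (1.95 against 1.46), and its part in the T>C read counts and odds was not tested. How many of all tested genes showed such a difference was not counted, so it cannot be called particular to these genes.

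For CNOT7, the T>C share was 12.4%, 12.4% and 11.5% in DMSO and 8.87%, 7.77% and 7.63% in C646 (log2 change of the odds −0.65, SE 0.14, adjusted p = 0.000317). CNOT9 had a log2 change of the odds of −0.95 (SE 0.23, adjusted p = 0.00119), which no longer passed without DMSO replicate 2 (adjusted p = 0.0105). The shares of CNOT7 and CNOT9 did not overlap between groups. CNOT6 had shares of 12.3%, 12.7% and 16.1% in DMSO and 8.15%, 5.95% and 8.70% in C646, with a log2 change of the odds of −0.93 (SE 0.28, adjusted p = 0.00659). That pass was lost without DMSO replicate 1 (adjusted p = 0.0170), DMSO replicate 2 (0.0189), DMSO replicate 3 (0.0486) or C646 replicate 2 (0.0336). The log2 change of the odds of CNOT1 was −0.52 (adjusted p = 0.0273), that of CNOT6L −0.28 (adjusted p = 0.104), and neither passed.

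**Figure D5:**
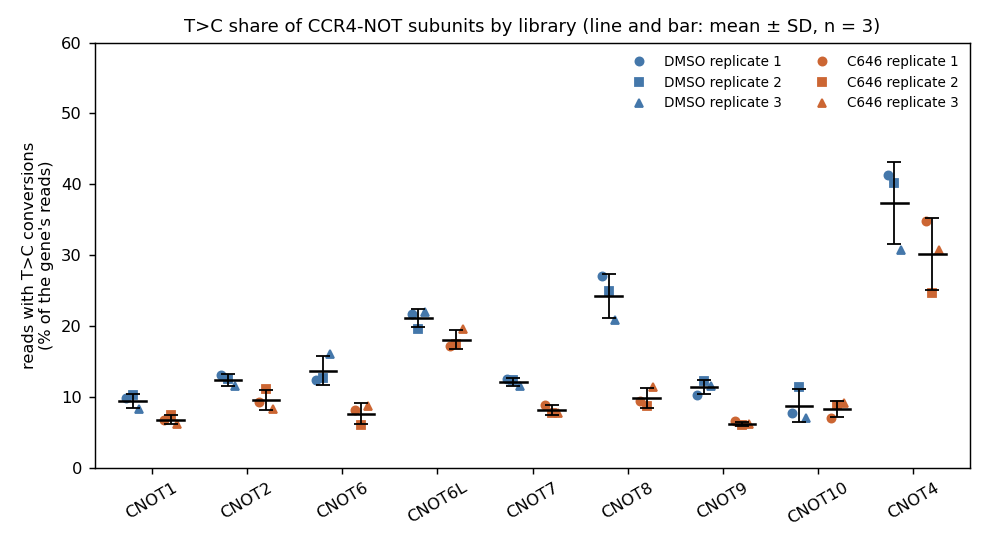
Share of each subunit's reads that carried T>C conversions (y axis, percent) in 3 DMSO libraries (blue) and 3 C646 libraries (orange), with lines and bars for the mean ± SD. CNOT8 runs from 20.8% to 27.0% in DMSO and from 8.67% to 11.4% in C646, whereas CNOT4 and CNOT10 overlap between groups.

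CNOT11 and TNKS1BP1 are further proteins of the complex outside the 10 subunits. CNOT11, the partner of CNOT10, had 93, 59 and 50 T>C reads in DMSO and 33, 53 and 59 in C646 (log2 fold change −0.56, SE 0.28, adjusted p = 0.0873), or 101, 101 and 92.5 against 84.2, 120 and 132 CPM in all reads (log2 fold change 0.19, adjusted p = 0.393). Neither measure passed. In T>C CPM the CNOT11 groups did not overlap (9.80, 8.18 and 6.73 against 4.36, 6.49 and 5.85), and its T>C odds passed lower (log2 change −0.80, SE 0.25, adjusted p = 0.00860). That pass was lost when any one of the 6 libraries was left out (adjusted p = 0.0118 to 0.0643). TNKS1BP1, a large protein found with the complex, had 24, 20 and 11 T>C reads in DMSO and 3, 2 and 2 in C646. It passed lower in T>C reads (adjusted p = 0.000393), but met the read filter only through its DMSO libraries, so the pass is no independent support. No fold is given since the C646 libraries held at most 3 reads each. With scaling by T>C reads TNKS1BP1 was not kept for testing. In all reads TNKS1BP1 had 16.9, 19.96 and 18.3 CPM in DMSO and 14.4, 14.8 and 12.995 CPM in C646, without overlap and without passing (log2 fold change −0.38, adjusted p = 0.136).

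Around the complex, 21 other deadenylation genes were examined, CNOT11 and TNKS1BP1 included, along with PAN2-PAN3, other poly(A) nucleases and the BTG/TOB family that links CAF1-type enzymes to mRNAs. The list also holds poly(A)-binding proteins (PABPC1, PABPC4 and PABPN1) and nucleotidyltransferases that extend RNA tails (TENT4A, TENT4B, TUT4 and TUT7). Of 18 tested in T>C reads, 8 passed lower and 2 higher, with a median log2 fold change of −0.44, beside 38.0% lower, 3.83% higher and a median of −0.83 over all tested genes. BTG1, an antiproliferative member of that family, rose 2.62-fold in new RNA (log2 fold change 1.39, SE 0.16, adjusted p = 2.02e-08), with 392, 423 and 419 T>C reads in DMSO and 1036, 1006 and 1502 in C646. Its relative BTG3 (log2 fold change −1.44, adjusted p = 7.40e-05), the mitochondrial poly(A) nuclease PDE12 (−1.37, adjusted p = 0.00365) and TOB2 (−1.32, adjusted p = 0.000964) had the largest falls among called genes averaging 20 or more T>C reads per library. Below that depth, TNKS1BP1 and TENT4A passed with lower fitted values, but both met the read filter only through their DMSO libraries. With scaling by T>C reads, the list's median turned to 0.51, 0 genes of 17 tested passed lower and 4 passed higher (8.97% and 11.4% of all genes with that scaling), and BTG3, PDE12 and TOB2 stayed below 0 without passing (−0.60, −0.54 and −0.50). In all reads, 1 of 20 passed lower (BTG2) and 5 higher (BTG1, PAN2, PABPC1, PABPC4 and TENT4B, named after their values were seen), beside 6.28% and 9.81% of all genes. With scaling by all filtered reads, 0 passed lower (BTG2 adjusted p = 0.0102) and 7 higher, beside 2.59% and 15.9% of all genes.

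Of 27 adaptors that bring CCR4-NOT to mRNAs, 24 were tested in T>C reads, and 5 passed lower and 1 higher, with a median log2 fold change of −0.31 (all tested genes 38.0%, 3.83% and −0.83). ZFP36L2, which binds AU-rich elements, fell 3.84-fold in new RNA (log2 fold change −1.94, SE 0.14, adjusted p = 4.59e-12), from 2926, 1897 and 2107 T>C reads in DMSO to 477, 585 and 883 in C646. GIGYF1 had a log2 fold change of −1.92 (adjusted p = 4.93e-05). The adaptor that rose was CPEB4, which binds cytoplasmic polyadenylation elements (log2 fold change 1.31, adjusted p = 0.000148). ZFP36L2 passed with scaling by T>C reads too (−1.11, adjusted p = 2.11e-07), and so did CPEB4 (2.14, adjusted p = 7.52e-08), but GIGYF1 did not (−1.10, adjusted p = 0.0185), and the list's median turned to 0.52 with 1 of 24 genes lower and 7 higher, again beside 8.97% and 11.4% of all genes. In all reads, 3 of 25 adaptors passed lower and 6 higher, with a median of 0.40 (all tested genes 6.28%, 9.81% and −0.0030). With scaling by all filtered reads, 2 passed lower and 9 higher, with a median of 0.61, beside 2.59% and 15.9% of all genes.

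Of 18 decapping and 5′-3′ decay genes, 15 were tested in T>C reads and 5 passed lower and 0 higher, beside 38.0% and 3.83% of all tested genes. Their median was −0.73, against −0.83 over all genes, and turned to 0.10 with scaling by T>C reads, where 0 of 15 passed in either direction (2 lower and 0 higher at an unadjusted p under 0.05). DCP1A, a cofactor of the decapping enzyme, had a log2 fold change of −1.04 (adjusted p = 0.000439), or −0.21 with scaling by T>C reads. Below an average of 20 T>C reads per library, EDC3 and LSM14B passed with lower fitted values. Both met the read filter only through their DMSO libraries and did not pass with scaling by T>C reads. In all reads, 0 of the 16 tested passed in either direction with edgeR, with a median of 0.0088. At an unadjusted p under 0.05, 2 were lower and 4 higher, and DESeq2 passed 0 lower and 1 higher. The share of all genes at that unadjusted level was not counted. With scaling by all filtered reads of the library, edgeR passed 0 lower and 3 higher, beside 2.59% and 15.9% of all genes (DCP2, DCPS and LSM6, named after their values were seen).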

How the data were processed

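SLAM-seq was performed on MOLM-13 cells, 3 DMSO and 3 C646 libraries, grouped by their labels. With SLAM-Dunk v0.4.1, the authors aligned QuantSeq 3′-end reads to the GRCh38 build and counted them on 58136 annotated 3′ UTR entries, 1 deposited table for each library. The deposited tables hold raw counts of reads, T>C reads, conversions and multimapped reads. Further deposited columns hold the conversion rate as a fraction, CPM scaled by all filtered reads, the signal (coverage) on T positions, and lengths. T bases were listed as 0 throughout C646 replicate 3, so they were taken from the other tables, and the T bases of 15634 of 15634 entries equalled those in GRCh38. The study called new RNA from reads with at least 2 conversions, whereas the deposited column of T>C reads was used here.

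Counts were summed over the entries of each gene (25420 genes). Genes were kept by filterByExpr and tested with edgeR 4.0.16 (glmQLFit, glmQLFTest) in R 4.3.3, with Benjamini-Hochberg adjustment over all tested genes. T>C reads were scaled by the TMM-scaled totals of all reads. For T>C odds, each library entered the model as its T>C reads and its remaining reads, with a library term. The SE is the size of the log2 fold change over the square root of F, and 95% intervals use the normal quantile. They are therefore narrower than the F test implies, and passing rests on the test alone. The fits were tested on simulated data. Genes passed at an adjusted p of at most 0.01, and were called with at least 2-fold in addition. Ratios within libraries were compared by exact permutation (two-sided), and the libraries' totals limit counting error as given in the text. Alternatives were scaling by other size factors, totals, filtered reads or T>C reads, DESeq2 1.42.0, other filters, single entries, conversions, a replicate block, and leaving out each library. Plots were drawn with matplotlib 3.10.9.

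The subunits, lists and tests were chosen with earlier results of these data known. Named genes are all subunits, CNOT11 and TNKS1BP1, entries with at least 5% of a gene's reads and, per list, up to 3 falls and 2 rises in T>C reads that were largest among called genes averaging 20 or more T>C reads. The second CNOT7 entry, BTG2, PAN2, PABPC1, PABPC4, PABPN1, TENT4A, TENT4B, TUT4, TUT7, DCP2, DCPS, LSM6, EDC3 and LSM14B fall outside this rule.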

Additional observations from a re-analysis of the deposited data

How the results depend on the processing

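The count of subunits with a lower T>C call of at least 2-fold was 1 (CNOT9). It was 0 with scaling by all filtered reads, where CNOT9 passed at −0.93 on the log2 scale, and 0 by T>C reads (−0.30, adjusted p = 0.358), and 2 (CNOT1, CNOT9) with conversions, which were added after the data were seen. Of all genes, 2548 of 7722 were called lower in the main fit and 1874 of 7727 with filtered reads. By T>C reads it was 596 of 7847, and with conversions 2445 of 7721. Scaling by T>C reads turned CNOT1 to 0.088 and CNOT7 to 0.68 on the log2 scale, and CNOT6L passed at 0.85. It also moved the counts of all genes called from 2548 lower and 229 higher to 596 and 717, and a minimum of 50 T>C reads, with 2843 genes tested in place of 7722, gave 1038 and 125. Scaling by all filtered reads raised the median of all genes in all reads to 0.20, with 90 genes lower and 1014 higher in place of 204 and 639, and 1 subunit (CNOT8) higher with at least 2-fold in place of 0. The count of subunits lower in T>C odds with at least 2-fold was 1 (CNOT8) and ran from 1 to 2 when 1 library was left out, with CNOT9 added without DMSO replicate 1 and CNOT6 without C646 replicate 3. Among all genes, 2958 of 7722 were called lower in the odds with every library. The count was 2210 of 7982 without DMSO replicate 1 and 2949 of 8181 without C646 replicate 3. The log2 difference of the CNOT6L to CNOT6 ratio in all reads ran from −0.15 to 0.17 over left-out libraries. Causes were not tested, beyond what each scaling sets by its construction. Replicate numbers were not used to pair the libraries. Correlations of same-numbered deviations were −0.0014, 0.14 and 0.23 in all reads and 0.030, 0.044 and 0.065 in T>C reads. Between different numbers they ran from −0.22 to 0.15 and from −0.050 to 0.016, so a weak pairing is not excluded. A fit with the replicate as a block gave 2586 genes lower and 226 higher in T>C reads, and changed no count of called subunits. Depth limits CNOT10 most, with 11 to 30 T>C reads per library.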
